A study of Sus scrofa with 6 samples.

Results

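The array carried 54 probes for cytochrome P450 enzymes among its 43603 probes that were not controls. They were chosen by their annotation alone: 42 had a gene name that begins with CYP and a digit, and the other 12 were described as cytochrome P450 in the annotation of the array without being a reductase. The 54 probes stood for 42 names, of the 40865 names on the array, and 33 of these were genes and 9 were clusters of transcript sequences known only by a number (TC). Gene expression was compared between longissimus dorsi muscle (LDM), a glycolytic muscle of the back, and psoas major muscle (PMM), an oxidative muscle of the loin, with 3 arrays for each. All arrays came from female Landrace pigs at 210 days of age that carried no transgene and received no drug, were weaned at 28 days and had no feed for 24 h before slaughter. The pigs were unrelated, and both muscles were taken from each. The description of RNA extraction in the labels speaks of adipose tissue, although the samples are labelled as muscle, and all 12 skeletal muscle marker genes were well above background on all 6 arrays.

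Cytochrome P450 enzymes are haem proteins of the endoplasmic reticulum and the mitochondria that insert an oxygen atom into a substrate. They draw electrons from P450 oxidoreductase and cytochrome b5, or in mitochondria from ferredoxin. Some clear drugs, plant compounds and microbial products, mainly in the liver, and others make or break down steroid hormones, bile acids, vitamin D, retinoic acid and fatty acid signals in many tissues. CYP2A19 belongs to the first kind and is known in the pig for its part in the breakdown of skatole, a cause of boar taint in pork.

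The probes that the results turn on are shown 5′ to 3′, as the files give them. CYP2A19 had a pair of probes, one that starts at base 538 of its transcript record and another that starts at base 1697. The whole first probe and the first 30 bases of the other are given, in lower case throughout because no stretch was to be marked. Neither had a run of 20 bases in common with any other probe of the array, the other CYP2A19 probe included.
CYP2A19 A_72_P172956: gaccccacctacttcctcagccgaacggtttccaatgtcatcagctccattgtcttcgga
CYP2A19 A_72_P035981: gagggaaagaagacttttcttctttttaag

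For 3 further P450 probes and a cluster resembling human CYP2J2, which are described below for a signal on a single array or for the highest difference towards PMM, the first 30 bases are given.
CYP3A39 A_72_P232927: gagaccttgactttctttgtgataagaact
CYP2E1 A_72_P165451: ttccagcccacatccttcagatagaatttg
CYP2C49 A_72_P176161: ccagtatgtagctgtttgtcctctgcattt
TC334239 A_72_P014836: atatagagagaatggtcagagaaatgccca

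A probe of CYP17A1 and a probe of the cluster TC334743 overlapped by 44 bases, set in capitals, and therefore read nearly the same transcript.
CYP17A1 A_72_P283114: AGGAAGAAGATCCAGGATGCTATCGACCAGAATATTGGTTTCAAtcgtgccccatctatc
TC334743 A_72_P116061: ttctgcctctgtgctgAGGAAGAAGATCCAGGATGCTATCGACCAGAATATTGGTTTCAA
The CYP17A1 probe was well above background on 3 of the 6 arrays, with intensities of 11.3 to 31.2, and the TC334743 probe on none. Probes of CYP19A2 and CYP19A3 shared 25 bases, and neither was well above background on any array. The CYP24A1 probe shared at least 20 bases with 2 unnamed probes outside the family. No other P450 probe had 20 bases in common with another probe.

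Before the comparisons, array LDM 3 stood apart in genes that mark hepatocytes. Of the 10 hepatocyte genes listed, 6 had a probe, and all 6 were well above background on LDM 3 against 5 on each of the other arrays. Summed over the 5 of these genes other than APOA1, and relative to the 75th percentile of each array, the signal was 14.9 on LDM 3, 1.22 and 1.01 on the other LDM arrays, and 0.719 to 1.43 on the PMM arrays. With APOA1 the sums were 17.1 to 94.2 in LDM and 26.02 to 50.3 in PMM. Albumin (ALB), the main plasma protein made by the liver, had an intensity of 6382 on LDM 3 and of 44.8 to 107 on the other 5 arrays. Transthyretin (TTR) had 998 on LDM 3 and at most 10.03 elsewhere. Results on P450 genes that rest on LDM 3 are therefore given with and without it.

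Fewer P450 probes were measured in muscle than probes in general. Of the 54 probes, 24 (44.4%) were well above background on all 3 arrays of at least 1 muscle, against 59.2% of all probes. All 6 arrays measured 19 P450 probes, against 54.4% of all probes, and no array measured 20 of them, against 23.6% of all probes. The remaining 15 were above background on 1 to 5 arrays, and 5 of these met the condition on a whole muscle. Per array, 29, 28 and 29 of the 54 probes were well above background in LDM and 20, 30 and 24 in PMM. By name, 22 of the 42 had a probe that met the condition, 18 of them genes and 4 of them clusters. PMM 1 had the fewest P450 probes above background, and the counts of the muscles overlapped.

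**Figure D1:**
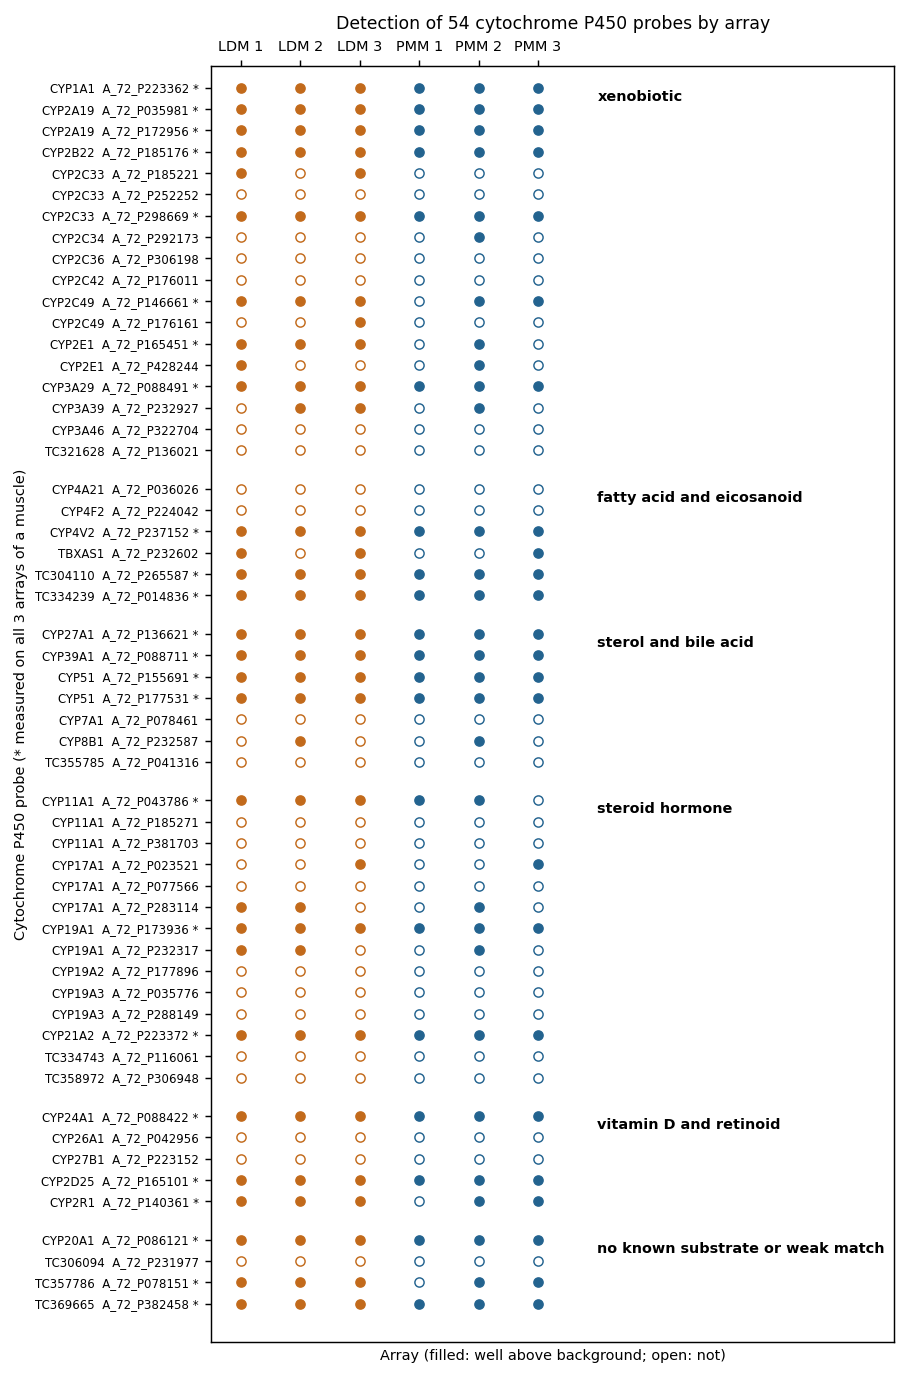
Detection of all 54 cytochrome P450 probes (rows, grouped by known role) on the 6 arrays (columns), with filled circles where the scanner software called the spot well above background and open circles where it did not. Asterisks mark the 24 probes measured on all 3 arrays of a muscle, of which 19 are filled in every column, and the open circle of CYP11A1 A_72_P043786 on PMM 3 is a spot left out as an outlier.

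Among the 13 names of enzymes that mainly clear foreign compounds, 7 were measured by the condition on a whole muscle. These were CYP1A1, the enzyme induced through the aryl hydrocarbon receptor, together with CYP2A19, CYP2B22, CYP2C33, CYP2C49, CYP2E1 and CYP3A29. CYP2C34, CYP2C36, CYP2C42, CYP3A39, CYP3A46 (CYP3A88 in the files) and TC321628, a cluster resembling CYP2C33, were not. CYP2C34 passed on PMM 2 alone, CYP3A39 on 3 arrays, and the other 4 on none. CYP2C33 had 2 further probes and CYP2C49 and CYP2E1 had 1 each that failed the condition, so the detection of these genes rested on the probe chosen.

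Among 6 names of the sterol and bile acid branch, CYP51, CYP27A1 and CYP39A1 were measured. CYP51 is the lanosterol demethylase of cholesterol synthesis, CYP27A1 a mitochondrial sterol hydroxylase and CYP39A1 an oxysterol hydroxylase. CYP7A1, the rate-limiting enzyme of bile acid synthesis, had intensities of 2.3 to 6.3 and was above background on no array, as was TC355785, a cluster resembling CYP7B1. CYP8B1, which directs synthesis towards cholic acid, was above background on LDM 2 and PMM 2 alone, at 45.9 and 32.3.

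Of the 8 names that stand for steroid hormone synthesis, CYP11A1, CYP19A1 and CYP21A2 were measured. CYP11A1 cleaves the side chain of cholesterol at the start of the pathway, CYP21A2 leads to corticosteroids, and CYP19A1 is aromatase, which makes oestrogens. Each was measured by a single probe, since the other 2 probes of CYP11A1 were above background on no array and the other probe of CYP19A1 on 3. CYP17A1, which leads to androgens, failed the condition on all 3 of its probes, as did its clusters TC334743 and TC358972. CYP19A2 and CYP19A3, the other aromatase genes of the pig, were above background on no array.

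Of the 5 names of vitamin D and retinoid enzymes, CYP2R1, CYP2D25 and CYP24A1 were measured. CYP2R1 and CYP2D25 can hydroxylate vitamin D to its circulating form, and CYP24A1 breaks down the active hormone. CYP27B1, which makes the active hormone, and CYP26A1, which degrades retinoic acid, were above background on no array. Of 6 names for fatty acid and eicosanoid enzymes, CYP4V2, a fatty acid hydroxylase, and the CYP2J clusters TC334239 and TC304110 were measured. CYP2J enzymes form epoxides of arachidonic acid. Thromboxane synthase (TBXAS1), which platelets and macrophages carry, was above background on LDM 1, LDM 3 and PMM 3, at 11.7, 34.8 and 27.0, and CYP4A21 and CYP4F2 on none. Of the last 4 names, CYP20A1, an enzyme with no known substrate, was measured, as were the clusters TC357786 and TC369665. Those clusters and TC306094, which was not measured, match bacterial or algal P450 proteins over a small part of their length, so their place in the family is uncertain.

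To learn whether P450 levels differed between the muscles, the 24 measured probes were compared. None was called. The limma test, adjusted over all 25824 probes measured, found 0 of the 24 with an adjusted p under 0.05, and 0% of all probes were called. The lowest adjusted p was 0.99998 among P450 probes and 0.0513 among all probes. At an unadjusted p under 0.05 there was 1 of the 24, a CYP2A19 probe, against 2.67% of all probes. With the replicate number as a block, 0 of the 24 were called, against 0.062% of all probes (0.031% in each direction), and 2 had an unadjusted p under 0.05, against 11.3% of all probes. P-values without the block set a difference against the spread between the arrays of a muscle. Those with the block set it against the spread of the differences among replicate numbers.

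Differences ran equally in both directions. PMM was higher for 12 probes and LDM for 12, against 45.2% and 54.8% of all probes, and with normexp background correction, which moved the median of all probes from -0.03 to 0.12, PMM was higher for 19 and LDM for 5. The median log2 fold change of PMM over LDM was -0.01, and -0.03 over all probes. The median absolute log2 fold change was 0.23, and 0.20 over all probes, and 21 of the 24 changed by less than 0.5. The standard error at the median was 0.42 without the replicate block and 0.20 with it. A difference of 0.23 thus lay within the unpaired spread of the arrays and was close to the blocked standard error. The muscles did not overlap for 1 of the 24 probes, a CYP2A19 probe higher in LDM, against 5.98% of all probes (3.17% with PMM and 2.81% with LDM higher). Of the 23 probes with a value on every array, 4 were higher in PMM and 4 in LDM in 3 of 3 replicate numbers, against 17.3% and 19% of all probes and 36.3% in either direction. In bulk muscle, fewer cells of a type and less RNA per cell cannot be told apart.

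**Figure D2:**
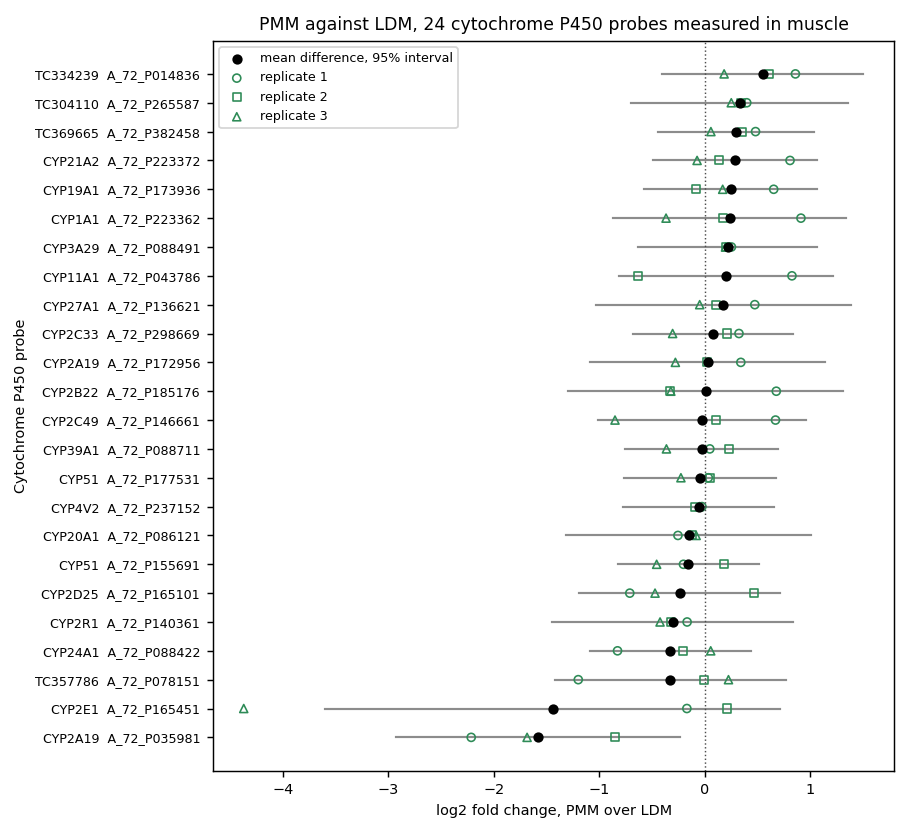
Log2 fold change of PMM over LDM (horizontal axis) for the 24 measured P450 probes (rows). Black points are the limma estimates with 95% intervals and open green symbols the differences at each replicate number. The intervals are without the replicate block, and all but that of CYP2A19 probe A_72_P035981 include 0. With the block, that of TC334239 (0.06 to 1.05) excludes 0 as well.

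CYP2A19 gave different answers through its 2 probes. At the probe A_72_P035981, at base 1697, LDM 1, LDM 2 and LDM 3 had intensities of 501, 937 and 1281, and PMM 1, PMM 2 and PMM 3 had 94.3, 468 and 409. As log2 relative to the 75th percentile of each array, the levels were -0.44, 0.09 and 0.96 in LDM and -2.65, -0.76 and -0.72 in PMM. Every LDM array was above every PMM array, with PMM 1 far below the rest. The log2 fold change was -1.58 ± 0.59 (SE, n = 3 per muscle), which is 2.99-fold higher in LDM, with a 95% interval of -2.93 to -0.24. With the replicate block the interval was -2.31 to -0.85. LDM was higher in 3 of 3 replicate numbers, by 4.64-fold, 1.80-fold and 3.21-fold. The exact permutation test, two-sided, gave p = 0.1, the smallest that 3 against 3 arrays allow, and limma gave an adjusted p of 0.99998 without and 0.203 with the replicate block.

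At the probe A_72_P172956, at base 538, the muscles differed by less than the spread between arrays. The intensities were 151, 366 and 482 in LDM and 168, 334 and 408 in PMM, and the arrays of the muscles were interleaved. The log2 fold change was 0.03 ± 0.49 (SE), with a 95% interval of -1.09 to 1.14. With the replicate block the interval narrowed to -0.45 to 0.51, which excludes a difference of the size seen at the other probe. The log2 ratio of the probe at base 1697 to the probe at base 538, taken within each array, was 1.73, 1.36 and 1.41 in LDM and -0.83, 0.49 and 0.00 in PMM. No LDM array overlapped a PMM array, and the mean ratio differed by -1.61 (exact permutation, two-sided, p = 0.1, the smallest possible). This ratio restates the values of the 2 probes given above and is no separate support, and the permutation does not use the replicate numbers. Which transcript forms each probe reads was not tested.

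**Figure D3:**
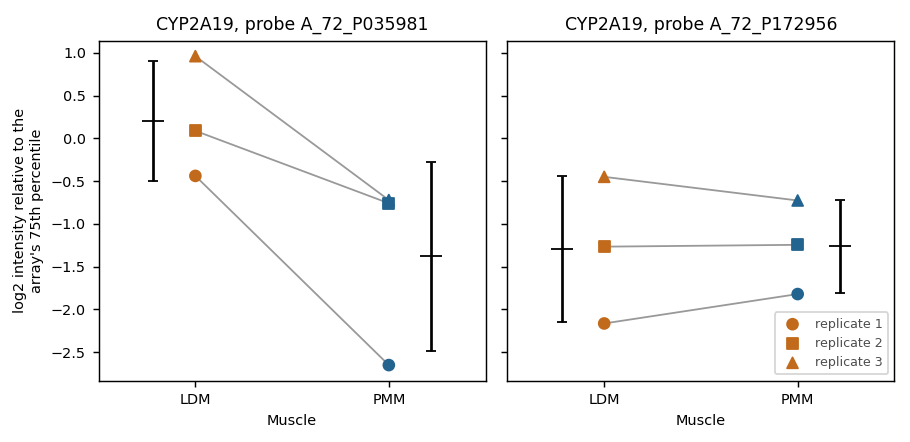
Levels of CYP2A19 (log2 intensity relative to the array's 75th percentile, vertical axis) at its 2 probes in LDM and PMM, with symbols and grey lines for the replicate numbers and bars for the mean ± SD of 3 arrays. LDM lies above PMM at every replicate number on the left, and the muscles interleave on the right.

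The CYP2A19 difference at base 1697 depended on single arrays for its size and not for its direction. Without LDM 3, the array with the hepatocyte transcripts, the estimate was -1.20 on the log2 scale, and leaving out PMM 1 gave -0.94. Replicates 2 and 3 each had both muscles on a shared slide, and within those slides the difference was -0.85 and -1.68. Replicate 1, on separate slides scanned the same day, gave -2.21. An alternative chosen after seeing the data used the replicate block and the brightest probe of each gene. It also left out probes outside the family that had no gene name. CYP2A19 was then called, as 1 of the 22 measured P450 names, with an adjusted p of 0.00486 in limma. Of all 3262 genes, 188 were called, so the P450 share was no higher. The same block over all 25824 measured probes called 0.062% of them and not CYP2A19. The mean of both probes gave a log2 fold change of -0.78 without the block, which was not called.

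Markers of other cell types also differed between the muscles beside CYP2A19, none of them called. All 4 measured fibroblast genes were lower in PMM in 3 of 3 replicate numbers, under each scaling on average, with a median log2 fold change of -0.63. Their summed signal relative to the 75th percentile was 97.7 to 220 in LDM and 71.3 to 154 in PMM. In the other direction, all 6 measured endothelial genes were higher in PMM on average under each scaling, with a median log2 fold change of 0.35. The 2 measured smooth muscle genes, ACTA2 and CNN1, were higher in PMM in 3 of 3 replicate numbers, with a median of 0.53. Of 4 macrophage genes, 3 were higher and 1 lower in PMM (1 and 3 with normexp). Of 8 adipocyte genes, 5 were lower and 3 higher in PMM (4 and 4 with normexp), and their summed signal was 150 to 511 in LDM and 181 to 471 in PMM. Perilipin (PLIN1), a coat protein of fat droplets, was lower in PMM by 1.79, 0.63 and 0.64 on the log2 scale in replicates 1, 2 and 3, whereas lipoprotein lipase (LPL) was higher by 2.03, 0.69 and 0.65. All 5 measured hepatocyte genes were lower in PMM on average (4 with quantile normalization, normexp or scaling on detected probes). However, all 5 were higher in PMM in replicate 1 and lower in replicate 3, to which LDM 3 belongs. ALB was at 0.48, -0.91 and -7.19 in replicates 1, 2 and 3, and APOA1 at 0.74, -0.07 and -0.68. PLIN1 and CYP2A19 at base 1697 were both lowest on PMM 1, where PLIN1 was not well above background. Among the other adipocyte genes, ADIPOQ, LEP, CIDEC and RETN were lowest on PMM 1 as well. FABP4, CFD and LPL were lowest on LDM 1 instead, and LPL was highest on PMM 1. The part of these cell types in the CYP2A19 difference was not tested.

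CYP2E1, which oxidises ethanol and other small molecules, had the next largest difference and owed it to LDM 3. Its intensities at the probe A_72_P165451 were 14.5, 26.2 and 228 in LDM and 11.3, 27.3 and 11.3 in PMM. LDM 3 was 10.1-fold above the next array relative to the 75th percentiles, and the other arrays of the muscles were interleaved. The log2 fold change was -1.44 ± 0.94 (SE), and -0.18 without LDM 3. In PMM, 1 of 3 arrays measured the probe, and the other probe of the gene, A_72_P428244, was above background on LDM 1 and PMM 2 alone, at 15.6 and 29.9.

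Another pair of P450 probes showed the same array. CYP3A39 had an intensity of 479 on LDM 3 and of 2.3 to 26.9 on the other 5 arrays, and the CYP2C49 probe A_72_P176161 had 224 on LDM 3 and 5.8 to 12.9 elsewhere. CYP3A39 was 21.4-fold above the next array, and the CYP2C49 probe was well above background on LDM 3 alone. The CYP2C33 probe A_72_P185221 had 39.5 on LDM 3 and 6.1 to 21.7 elsewhere, which is a smaller step. Over all 54 P450 probes, 3 (CYP2E1, CYP3A39 and CYP2C49) were well above background on LDM 3 and over 4-fold above the next array, against 0.459% of all probes on that array, and 0 stood out so on any of the other 5 arrays. The shares of all probes were 0.0711% on LDM 1, 0.078% on LDM 2, 0.954% on PMM 1, 0.225% on PMM 2 and 0.695% on PMM 3. CYP2C49 was not raised alike at its other probe, A_72_P146661, where LDM 3 had 44.4 and the other arrays 14.6 to 36.1.

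Genes known for expression in liver were also high on the same array. Besides ALB and TTR, intensities on LDM 3 and the highest of the other 5 arrays were 903 and 136 for SERPINA1, which encodes alpha-1-antitrypsin. They were 745 and 5.7 for GSTA1, a glutathione transferase, and 822 and 29.6 for GC, the vitamin D binding protein. SULT2A1, a sulfotransferase, had 61.1 and 11.3. CYP7A1, CYP2C36 and CYP2C42, which the liver also expresses, were not well above background on LDM 3. Whether a small amount of RNA of another tissue took part in the CYP2E1, CYP3A39 and CYP2C49 signals was not tested.

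**Figure D4:**
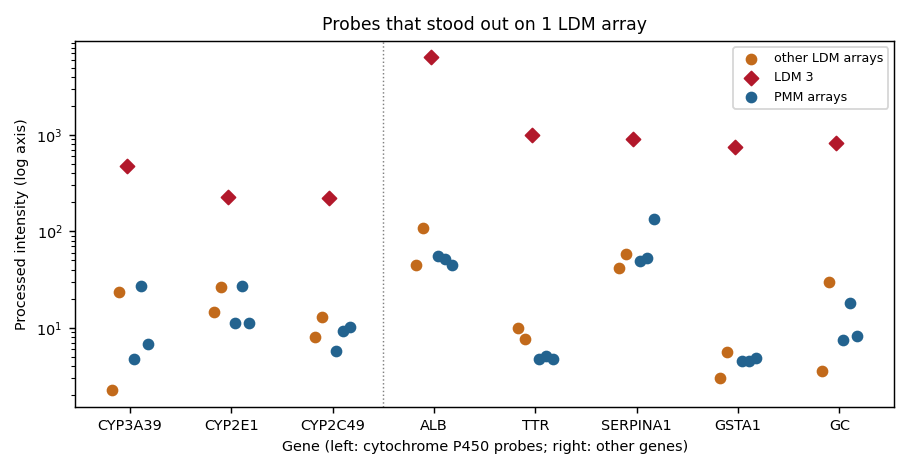
Processed intensities (vertical log axis) on the 6 arrays for the 3 P450 probes that were over 4-fold higher on LDM 3 than on any other array (left of the dotted line) and for 5 further genes (right), with LDM 3 as red diamonds and the other arrays as circles. LDM 3 lies above every other array for all 8 genes.

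The remaining drug-metabolising P450 genes differed little between the muscles. CYP1A1 had log2 levels of -4.66, -3.77 and -2.76 in LDM and -3.74, -3.60 and -3.12 in PMM, with the PMM values inside the LDM range. Its log2 fold change was 0.24 ± 0.48 (SE). CYP3A29, a pig member of the CYP3A family that oxidises many drugs, had levels of 1.14, 1.41 and 0.54 in LDM and 1.40, 1.61 and 0.74 in PMM. It was higher in PMM in 3 of 3 replicate numbers by nearly the same step of 0.20 to 0.26, with a log2 fold change of 0.22 ± 0.37 (SE). With the replicate block the SE was 0.155 and the adjusted p 0.662 in limma. CYP2B22, CYP2C33 and CYP2C49 had log2 fold changes of 0.01, 0.08 and -0.02.

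In the fatty acid branch, the largest difference towards PMM was that of TC334239, the cluster resembling CYP2J2. Its intensities were 20518, 17693 and 12105 in LDM and 32577, 24324 and 14115 in PMM. PMM was higher in 3 of 3 replicate numbers, by 1.82-fold, 1.53-fold and 1.14-fold, while the muscles overlapped because replicate 1 was highest and replicate 3 lowest in both. The log2 fold change was 0.55 ± 0.42 (SE), and limma with the replicate block gave an unadjusted p of 0.0347 and an adjusted p of 0.401. The other CYP2J cluster, TC304110, which resembles a sheep sequence, had log2 levels of -2.82, -1.66 and -1.67 in LDM and -2.42, -1.31 and -1.42 in PMM. It too was higher in PMM in 3 of 3 replicate numbers, with a log2 fold change of 0.33 ± 0.45 (SE). The clusters differed widely in level, with log2 means in LDM and PMM of 4.48 and 5.04 for TC334239 and of -2.05 and -1.72 for TC304110. The annotated match of TC334239 to human CYP2J2 covers a smaller part than that of TC304110 to the sheep sequence. Whether the clusters stand for the same gene was not tested. CYP4V2 differed by -0.05, with replicates 1, 2 and 3 at -0.025, -0.091 and -0.048.

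Vitamin D enzymes were lower in PMM on average at all 3 measured genes, within the spread, but with normexp background correction 2 of the 3 were higher in PMM. CYP24A1 had log2 levels of -0.35, -0.50 and -0.26 in LDM and -1.17, -0.70 and -0.20 in PMM. PMM 1 was the lowest array and PMM 3 the highest, so the muscles overlapped, and the log2 fold change was -0.32 ± 0.34 (SE). For CYP2R1 the levels were -5.88, -4.73 and -4.33 in LDM and -6.05, -5.05 and -4.75 in PMM. LDM was higher in 3 of 3 replicate numbers, by 0.17 to 0.42 on the log2 scale, but PMM 1 was not well above background, and the log2 fold change was -0.30 ± 0.50 (SE). CYP2D25 ran both ways, with LDM higher in replicates 1 and 3 and PMM higher in replicate 2, and a log2 fold change of -0.24 ± 0.41 (SE). Its levels were -2.03, -3.09 and -1.69 in LDM and -2.74, -2.63 and -2.16 in PMM.

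Steroid hormone enzymes were higher in PMM on average at all 3 measured genes under each of the 5 scalings, again within the spread. CYP19A1 had log2 levels of -0.40, 0.38 and 0.60 in LDM and 0.26, 0.29 and 0.77 in PMM, with a log2 fold change of 0.25 ± 0.36 (SE). CYP21A2 had -3.76, -2.84 and -3.09 in LDM and -2.95, -2.71 and -3.16 in PMM, with a log2 fold change of 0.29 ± 0.34 (SE). In each case LDM 1 was the lowest array and most of the difference came from replicate 1. CYP11A1 had intensities of 41.1, 117 and 47.2 in LDM and 63.8 and 67.7 in PMM 1 and PMM 2. Its spot on PMM 3, at 1748, was marked as an outlier by the scanner software and was left out, which left 2 PMM arrays and a log2 fold change of 0.20 ± 0.43 (SE). With that spot kept the value was 1.79, so for CYP11A1 a single spot decided the size.

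Sterol enzymes were nearly level between the muscles. CYP51 was measured by a probe with 5 spots per array, whose SD between spots was 0.03 to 0.09 on the log2 scale, well below the SD of 0.36 between the LDM arrays. That probe gave a log2 fold change of -0.04 ± 0.32 (SE) and the other CYP51 probe -0.16 ± 0.29 (SE). CYP27A1 had log2 levels of -0.05, -1.44 and -0.72 in LDM and 0.43, -1.33 and -0.76 in PMM. Replicate 1 was the highest and replicate 2 the lowest in both muscles, and the log2 fold change of 0.18 ± 0.53 (SE) was small beside those steps. CYP39A1 differed by -0.03 ± 0.32 (SE).

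Of the members with no known substrate, CYP20A1 had a log2 fold change of -0.15 ± 0.51 (SE) and was higher in LDM in 3 of 3 replicate numbers, by 0.08 to 0.25. The cluster TC369665 had log2 levels of 0.98, 1.23 and 0.79 in LDM and 1.47, 1.58 and 0.85 in PMM and was higher in PMM in 3 of 3 replicate numbers, with a log2 fold change of 0.30 ± 0.32 (SE). TC357786 had -4.30, -3.72 and -4.41 in LDM and -5.50, -3.72 and -4.19 in PMM. Its log2 fold change of -0.32 ± 0.48 (SE) came from PMM 1, where the probe was not well above background.

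Some P450 levels varied with the replicate number, alike in both muscles. Relative to the probe means, CYP20A1 was lower in replicate 1 than in replicates 2 and 3 in both muscles, and CYP27A1 and CYP2B22 were higher there. The median over P450 probes of PMM minus LDM was 0.29 in replicate 1, 0.11 in replicate 2 and -0.22 in replicate 3 on the log2 scale. With the replicate number as a block, the median standard error of the P450 probes fell from 0.42 to 0.20. Over all measured probes it fell likewise, from 0.38 to 0.19, so this dependence was not particular to P450 probes. Replicate numbers coincided with the day of scanning, so pig and scan cannot be told apart.

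**Figure D5:**
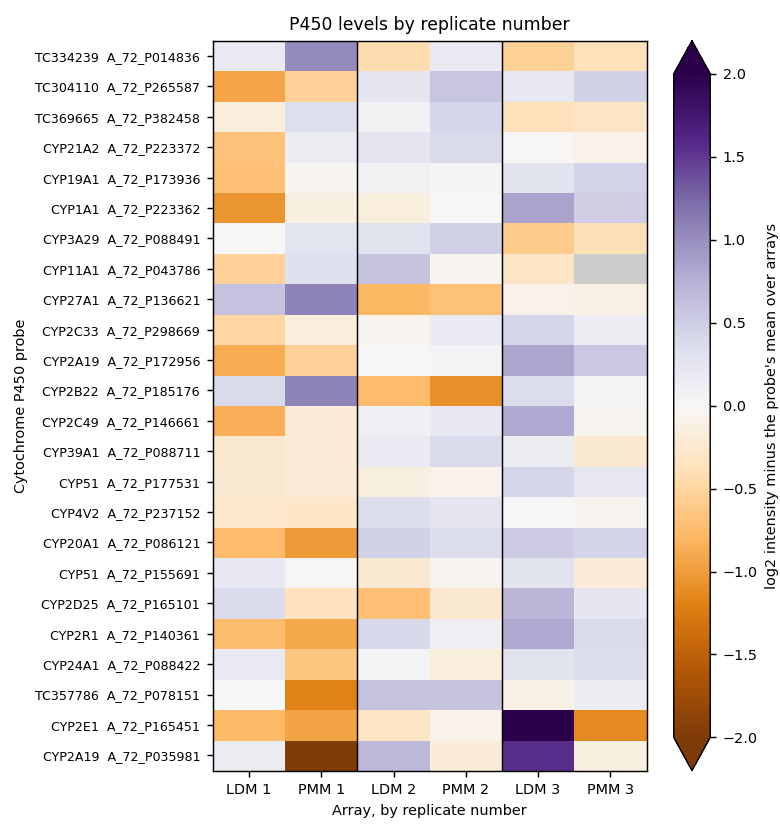
Log2 intensity of the 24 measured P450 probes (rows, in the order of their log2 fold change) on each array minus the mean of the probe over its arrays, with LDM and PMM of the same replicate number side by side. Colours run from brown (lower) to purple (higher), grey marks the CYP11A1 spot left out, and CYP20A1 and CYP27A1 keep the same colour in both muscles of a replicate.

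The partners of these enzymes were compared in the same fit, and 0 genes of any list were called with or without the replicate block. Of 15 genes for electron donors and haem supply, 6 had a probe and all 6 were measured, with 2 higher in PMM and 4 in LDM (0 and 6 with normexp). The largest differences were -0.30 ± 0.34 (SE) for PGRMC2 and 0.13 ± 0.39 for PGRMC1, which bind haem and P450 enzymes, and -0.19 ± 0.29 for cytochrome b5 (CYB5A). Of 23 regulators of P450 transcription, 15 had a probe and 9 were measured, 7 higher in PMM and 2 in LDM (4 and 5 with median centring). The largest differences were those of RXRG, a retinoid X receptor, at -0.71 ± 0.59 (SE), RARB, a retinoic acid receptor, at 0.50 ± 0.35, and NR1H3, an oxysterol receptor, at -0.40 ± 0.29. The muscles did not overlap for NR1H3, measured on all arrays, or for RARB, which was well above background on 2 of the 3 LDM arrays. Over all measured probes, 5.98% did not overlap.

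Of 31 other enzymes of drug metabolism, 12 had a probe and 9 were measured, 6 higher in PMM and 3 in LDM. UGT1A6, a glucuronosyltransferase, differed by -1.03 ± 0.52 (SE), TPMT, a thiopurine methyltransferase, by 0.91 ± 0.41, and MGST3, a microsomal glutathione transferase, by 0.52 ± 0.28. MGST3 did not overlap between the muscles, a trait shared by 5.98% of all measured probes. Of 22 genes of sterol synthesis and bile acids, 7 were measured and all 7 were higher in PMM (6 with quantile normalization, 5 with normexp and 4 with median centring), at a median log2 fold change of 0.16 against -0.03 for all probes. Squalene epoxidase (SQLE) led them at 0.25 ± 0.47 (SE), and MVK, the mevalonate kinase, followed at 0.23 ± 0.46. CYP51, which acts downstream of both, was at -0.04 at its brighter probe. Of 29 neighbours in steroid, retinoid, vitamin D and eicosanoid metabolism, 14 were measured, 4 higher in PMM and 10 in LDM (8 and 6 with normexp). CRABP1, a cytosolic binder of retinoic acid, differed by -1.57 ± 0.37 (SE) with no overlap and a blocked adjusted p of 0.183 in limma, PTGIS, the prostacyclin synthase, by -0.53 ± 0.52, and HSD11B1, which forms cortisol from cortisone, by -0.48 ± 0.44.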

How the data were processed

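RNA of LDM and PMM was hybridised to one-colour Agilent pig arrays. The authors deposited Cy3 spot intensities from Agilent Feature Extraction 10.5.1.1, with local background subtracted and trends corrected and no normalization between arrays. The normalization and test used in the study are not given in the sources used here. Between 58.5% and 72.4% of spots per array were well above background, and the number of arrays limits the precision.

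Control and outlier spots were removed, repeated spots averaged, and each log2 intensity was set relative to the 75th percentile of its array. Probes well above background on all 3 arrays of a muscle, with at least 2 values per muscle, were tested with limma 3.58.1 in R 4.3.3 (lmFit, eBayes, two-sided, Benjamini-Hochberg over 25824 probes, threshold 0.05), after a check on simulated data. PMM minus LDM is the direction throughout. Probes were named from their accession through RefSeq (Sscrofa11.1, names only) or by the files. The files name no genome build, so no coordinates are given. The labels' replicate numbers were taken to pair the arrays, because deviations from the mean of a muscle correlated at 0.62, 0.70 and 0.56 between arrays of the same number. Arrays of the same number also shared a scan day, and those of replicates 2 and 3 a slide. The correlations therefore cannot show that the numbers pair the arrays by pig. The study took both muscles of each pig.

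Values on each array were given for the 15 measured members with the largest absolute log2 fold change at their brightest probe, CYP2A19 among them, and for probes without overlap. Up to 3 genes of each pathway list were named by the same size. A further gene of the sterol list is not reported here. The members, lists and tests were chosen with earlier results of these data known. Alternatives covered normalization, background correction, filters, outlier spots, probe choice, blocks and left-out arrays. Of the marker lists, that of erythrocytes had no probe, and no gene of the skeletal muscle, adipocyte, hepatocyte, endothelial, macrophage, fibroblast, smooth muscle or steroidogenic lists was called.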

Additional observations from a re-analysis of the deposited data

How the results depend on the processing

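The count of P450 probes called stayed at 0 under all alternatives but 1, the direction of CYP2A19 at base 1697 stayed towards LDM under all of them, and the number of measured probes ranged from 19 to 34 with the condition on detection. With the replicate number as a block, by which the arrays were taken to be paired, the log2 fold change of CYP2A19 was -1.58 and was not called (adjusted p = 0.203 in limma). The exception to the count was the replicate block with the brightest probe of each named gene, chosen after seeing the data. There 1 of the 22 measured P450 names was called, CYP2A19 at -1.58 (adjusted p = 0.00486 in limma), and 188 of all 3262 genes were called. The P450 share was no higher than that over all genes. Leaving out single arrays gave 0 called P450 probes, 23 to 26 measured probes, and -1.91 to -0.94 for CYP2A19. The block changed no other call of a P450 probe.

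Single P450 values changed sign with the processing, none of them called, and the cause was not tested. Quantile normalization gave -0.023 for CYP2B22, with and without the block, and median centring -0.056 for CYP2B22 and -0.035 for CYP2A19 at base 538. Scaling on detected probes gave 0.00091 for CYP2C49. Normexp gave -0.087 for CYP2B22, 0.18 for CYP39A1, 0.21 for CYP20A1, 0.062 for CYP2D25, 0.46 for CYP4V2, 0.50 for TC357786, 0.44 for CYP2C49 and 0.47 for CYP2R1. The slide as a random block gave -0.26 for CYP2B22, -0.40 for CYP11A1, -0.026 for CYP1A1, 0.021 for TC357786, -0.017 for CYP2C33 and -0.095 for CYP2A19 at base 538.

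Leaving out single arrays changed the sign within these ranges: -0.048 to 0.45 for CYP19A1, -0.054 to 0.68 for TC304110, -0.026 to 0.54 for CYP11A1, -0.22 to 0.73 for CYP1A1, -0.15 to 0.31 for CYP2C33, -0.41 to 0.45 for CYP2A19 at base 538, -0.31 to 0.57 for CYP27A1, -0.52 to 0.56 for CYP2B22 and -0.23 to 0.082 for CYP39A1. The ranges were -0.57 to 0.31 for CYP20A1, -0.20 to 0.10 for CYP4V2, -0.45 to 0.37 for CYP2C49, -0.17 to 0.16 for CYP51, -0.026 to 0.47 for CYP3A29, -0.65 to 0.052 for CYP2D25, -0.75 to 0.078 for CYP2R1 and -0.70 to 0.19 for TC357786. With the block and without the pair of replicate 1, the values were -0.33 for CYP2B22, -0.10 for CYP1A1, 0.11 for TC357786, -0.043 for CYP2C33 and -0.13 for CYP2A19 at base 538. Without the pair of replicate 3 they were 0.045 for CYP51, 0.14 for CYP39A1, 0.39 for CYP2C49 and 0.023 for CYP2E1, whose difference rested on LDM 3.

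With 3 arrays per muscle, the median standard error was 0.42 without and 0.20 with the replicate block, which limits the differences that could be detected. Members with intensities near background have little resolution, and closely related P450 genes may share signal at a probe, which was not tested.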
